A study of Homo sapiens with 9 samples.

Results

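Iron enters blood-forming cells on transferrin, is stored in ferritin, leaves through ferroportin and is recovered from heme, and the 10 genes described here encode proteins of these steps. They are the transferrin receptors TFRC and TFR2, the ferric reductase STEAP3, the divalent metal transporter SLC11A2, the mitochondrial iron importer SLC25A37, the ferritin chains FTH1 and FTL, the exporter SLC40A1, and the heme breakdown enzymes HMOX1 and BLVRB. They were chosen by gene symbol as a set of known function, with earlier results of these data known. All 10 symbols were found among the 21229 genes of the count table, and all 10 passed the filter on low counts.

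The RNA came from hematopoietic cells made from H1, a human embryonic stem cell line, and the strand-specific libraries were read from both ends at 150 nucleotides. The 9 libraries form 3 groups of 3. The first group carried the genotype GATA2 overexpression and was CD90+, the second had the control genotype and was CD90+, and the third had the control genotype and was CD38+. GATA2 is a transcription factor of blood stem and progenitor cells, CD90 (gene THY1) marks stem cell-like progenitors, and CD38 is found on more mature progenitors and other blood cells. The labels give no vector, no promoter and no day of culture, and nothing in them tells whether the libraries of a group are from different cultures. A p-value here thus covers the spread between these libraries alone, which may be technical. No CD38+ library with GATA2 overexpression was analysed here, so genotype was compared within CD90+ cells and surface marker within controls, and the third comparison differs in both.

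Library totals were 37500192 to 47261093 counts. Levels are CPM, counts normalised to a library size that was scaled by the trimmed mean of M values (TMM), and they are compared between groups for 1 gene at a time. GATA2 averaged 376 ± 12.8 CPM in GATA2 overexpression CD90+, 87.3 ± 1.93 CPM in control CD90+ and 569 ± 16.3 CPM in control CD38+ libraries (SD, n = 3 each). The CD38 gene averaged 2.23, 4.37 and 122 CPM in the same order of groups. THY1 averaged 3.06 CPM in GATA2 overexpression CD90+ and 4.43 CPM in control CD90+ libraries, and it had 0 counts in the 3 control CD38+ libraries.

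Transferrin-bound iron is taken up by receptor-mediated endocytosis, reduced in the endosome by STEAP3 and carried out of it by SLC11A2. In red cell precursors most of it then passes to mitochondria through SLC25A37 for heme and iron-sulfur clusters, and the rest is held in ferritin. Blood cells coordinate these steps through the iron-responsive element (IRE), a short stem-loop in the mRNA. When iron is scarce, the iron regulatory proteins ACO1 and IREB2 bind it, which blocks translation where the IRE lies in the 5′ untranslated region and protects the mRNA where it lies in the 3′ untranslated region. Ferritin protein is therefore known to be set largely by translation, which RNA counts do not measure. HMOX1 and the ferritin genes are also among the known targets of the factors NRF2 and BACH1, which respond to oxidants and heme. Whether other genes of the set, such as SLC40A1, are targets too was not tested.

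IRE sequences are shown because they are the control elements that FTH1, FTL, SLC40A1, SLC11A2 and TFRC share and that the choice of genes by function did not use. They were read 5′ to 3′ on the gene's strand from GRCh38 with GENCODE release 29 transcripts, as the loop CAGTGN with a stem of at least 4 of 5 base pairs next to it and an unpaired C before the 5′ arm of that stem. Capitals mark the loop.
FTH1 5′ untranslated region, chr11:61967575-61967601, minus strand: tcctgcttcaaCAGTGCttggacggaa
FTL 5′ untranslated region, chr19:48965336-48965362, plus strand: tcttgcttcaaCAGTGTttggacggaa
SLC40A1 5′ untranslated region, chr2:189580662-189580688, minus strand: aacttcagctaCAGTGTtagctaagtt
SLC11A2 3′ untranslated region, chr12:50988270-50988296, minus strand: gccatcagagcCAGTGTgtttctatgg
TFRC 3′ untranslated region, chr3:196050464-196050490, minus strand: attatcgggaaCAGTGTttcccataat
TFRC 3′ untranslated region, chr3:196050511-196050537, minus strand: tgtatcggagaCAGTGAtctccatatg
TFRC 3′ untranslated region, chr3:196050576-196050602, minus strand: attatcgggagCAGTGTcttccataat
TFRC 3′ untranslated region, chr3:196050980-196051006, minus strand: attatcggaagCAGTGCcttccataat

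The FTH1 and FTL elements have the same 5 stem pairs next to the loop, and 4 elements lie close together in TFRC. The pattern was found in 5 of the 10 genes and in 12.4% of the 14925 tested genes with scanned protein-coding transcripts, so a match alone is common. The SLC11A2 element has 4 stem pairs and the other elements listed have 5. The genes with an element in the 5′ untranslated region did not move as a group, as the values below show: FTH1 and FTL were lowest in GATA2 overexpression CD90+ libraries, and SLC40A1 was highest there.

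The 10 genes covered a wide range of abundance. Between genes, levels are given as TPM, counts normalised for exon length and then for depth. FTL had the highest TPM level of the 10 in every group, at 11451 ± 331 TPM in GATA2 overexpression CD90+, 34636 ± 678 TPM in control CD90+ and 44261 ± 848 TPM in control CD38+ libraries (SD, n = 3 each). FTH1 was second in every group, at 1040 ± 41.3, 1767 ± 53.1 and 3108 ± 98.1 TPM. STEAP3 had the lowest level in every group, between 0.772 and 2.95 TPM on average, and TFR2 was next, between 2.22 and 7.42 TPM. The order in the middle differed. HMOX1 ranked 3 of 10 by mean TPM in control CD90+ and control CD38+ libraries and 6 in GATA2 overexpression CD90+ libraries, where SLC40A1 ranked 3 instead of 5. In GATA2 overexpression CD90+ libraries, BLVRB at 265 ± 9.52 TPM was close below SLC40A1 at 282 ± 6.40 TPM, and SLC25A37 at 19.2 ± 0.350 TPM and SLC11A2 at 19.1 ± 1.16 TPM did not differ beyond their spread. In control CD90+ libraries, HMOX1 at 430 ± 1.87 TPM lay above BLVRB at 418 ± 4.64 TPM. TPM values carry no TMM scaling and were not used to compare groups.

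**Figure D1:**
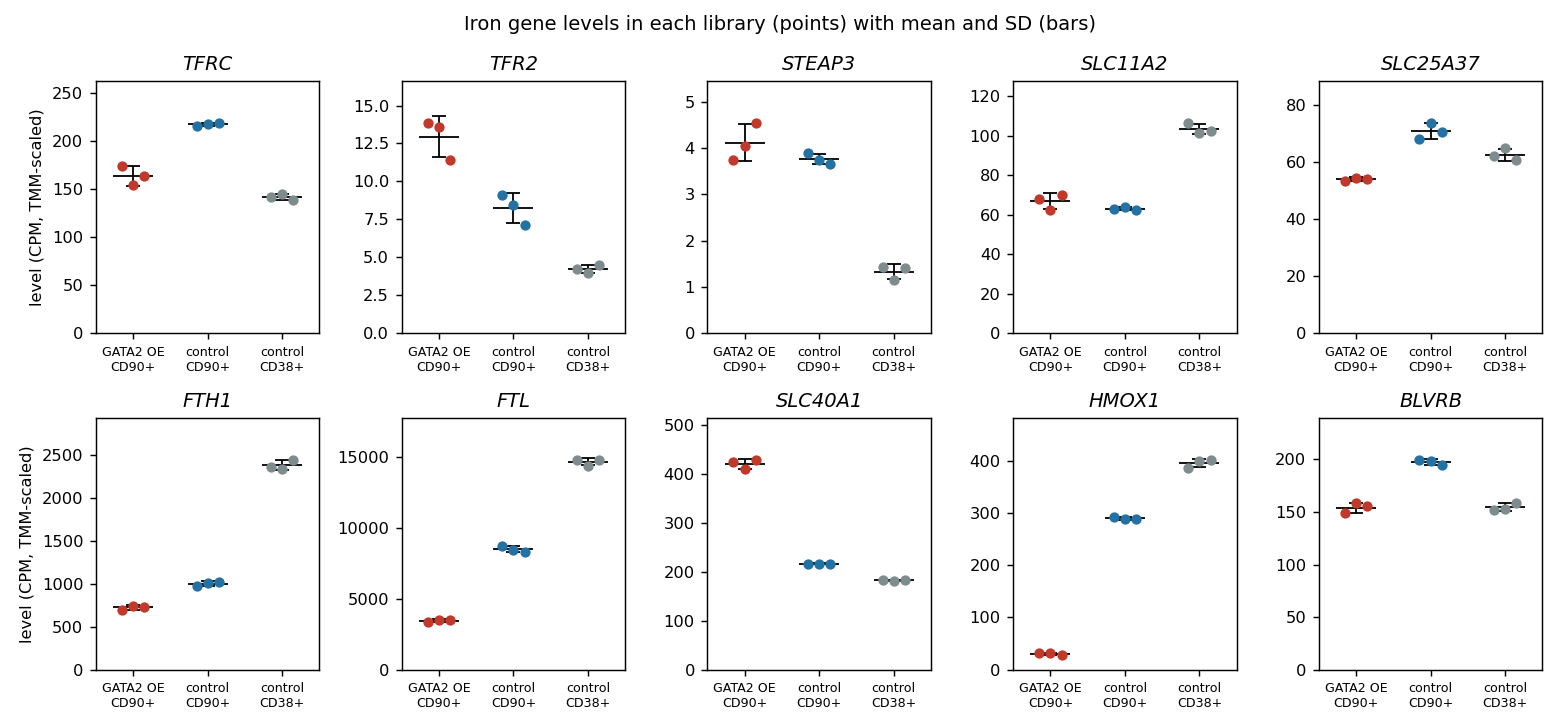
Level of each iron gene in every library, in CPM on the TMM-scaled library size (vertical axes start at 0 and differ by gene), with points for libraries and bars for the mean and SD of 3 libraries. FTH1, FTL and HMOX1 are lowest in the GATA2 overexpression CD90+ libraries and highest in the control CD38+ libraries, SLC40A1 and TFR2 run the other way, and TFRC, SLC25A37 and BLVRB are highest in the control CD90+ libraries.

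With GATA2 overexpression in CD90+ cells, HMOX1 and FTL fell and the exporter gene SLC40A1 rose, against control CD90+ cells. FTH1, TFRC, SLC25A37 and BLVRB fell by smaller amounts, TFR2 rose, and STEAP3 and SLC11A2 did not pass the test. In all, 8 of the 10 genes were called at an adjusted p under 0.05 by edgeR's quasi-likelihood test, 2 higher and 6 lower. Among all 16232 tested genes 77.6% were called, 38.0% higher and 39.6% lower, so the number called is close to the background. Of the 10 genes, 2 changed by at least 2-fold (HMOX1 and FTL), against 29.4% of all tested genes. The libraries of the 2 groups did not overlap in CPM for 8 of the 10 genes and for 80.4% of all tested genes. The median log2 fold change was -0.37 over the 10 genes and -0.04 over all tested genes.

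Between the controls, CD90+ cells had less ferritin RNA than CD38+ cells, less SLC11A2 and HMOX1, and more of the transferrin receptors and STEAP3. All 10 genes were called in control CD90+ against control CD38+ libraries, 6 higher and 4 lower, where 80.4% of all tested genes were called, 41.1% higher and 39.3% lower. The genes past 2-fold were STEAP3 (higher) and FTH1 (lower), 2 of 10 against 36.2% of all tested genes. On library size only, TFRC and TFR2 were also past 2-fold and FTH1 was not. Libraries of the controls did not overlap for 10 of the 10 genes and for 82.8% of all tested genes. The median log2 fold change was 0.21 over the 10 genes and 0.03 over all tested genes.

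GATA2 overexpression CD90+ libraries against control CD38+ libraries gave 9 of 10 genes called, 4 higher and 5 lower, where 83.2% of all tested genes were called, 43.3% higher and 39.9% lower. At least 2-fold changes were found for TFR2, STEAP3 and SLC40A1 (higher) and for FTH1, FTL and HMOX1 (lower), 6 of 10 against 44.2% of all tested genes. The libraries did not overlap for 9 of the 10 genes and for 83.0% of all tested genes. The median log2 fold change was -0.11 over the 10 genes and 0.07 over all tested genes. On library size only the calls were 5 higher and 4 lower, with a median of 0.05 over the 10 genes and 0.23 over all tested genes, and on upper-quartile factors 5 higher and 4 lower, with medians of 0.04 and 0.22. The 3 comparisons share libraries in pairs, so their values are given side by side and are not independent of each other. In whole-population RNA, fewer cells of a type and less RNA per cell cannot be told apart.

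**Figure D2:**
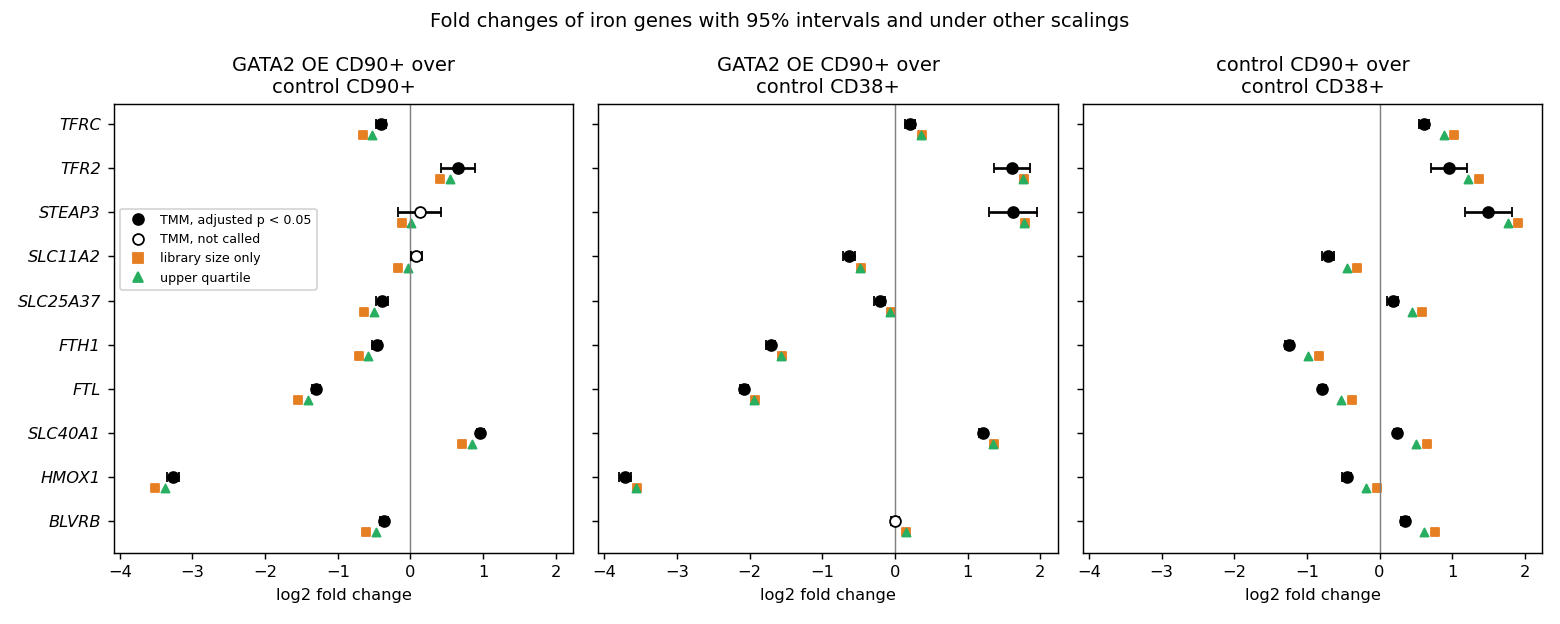
Log2 fold changes of the 10 genes in the 3 comparisons, with circles for the TMM-scaled fit (filled where the adjusted p is under 0.05, open where it is not), bars for approximate 95% intervals, and small marks for fits on library size only and on upper-quartile factors. HMOX1 lies at -3.27 and FTL at -1.30 in GATA2 overexpression over control CD90+ cells, and the other scalings shift all genes of a comparison together without moving these across 0.

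TFRC encodes the transferrin receptor that carries most iron into dividing and hemoglobin-making cells. Its levels were 174, 154 and 163 CPM in GATA2 overexpression CD90+, 217, 218 and 219 CPM in control CD90+ and 142, 145 and 139 CPM in control CD38+ libraries. The 3 groups did not overlap, with the control CD90+ libraries highest and the control CD38+ libraries lowest. The log2 fold change was -0.41 ± 0.03 (SE; adjusted p = 1.01e-08, edgeR) for GATA2 overexpression over control CD90+. It was 0.62 ± 0.04 (adjusted p = 3.79e-11) for control CD90+ over control CD38+, and 0.21 ± 0.04 (adjusted p = 4.44e-05) for GATA2 overexpression CD90+ over control CD38+. TFRC lies on chromosome 3 (196027183 to 196082189, minus strand, GRCh38).

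TFR2 encodes a transferrin receptor that serves mainly as an iron sensor, in liver and in erythroid precursors, where it is known to bind the erythropoietin receptor. The gene lies on chromosome 7 (100620416 to 100642779, minus strand, GRCh38). It had 13.8, 13.6 and 11.4 CPM in GATA2 overexpression CD90+, 9.11, 8.42 and 7.15 CPM in control CD90+ and 4.25, 3.98 and 4.48 CPM in control CD38+ libraries. All GATA2 overexpression libraries lay above all control CD90+ libraries, and those above all control CD38+ libraries. TFR2 rose 1.57-fold in GATA2 overexpression over control CD90+ (log2 0.65 ± 0.12 SE, adjusted p = 9.16e-05, edgeR), and was 1.94-fold higher in control CD90+ than in control CD38+ libraries (log2 0.96 ± 0.13, adjusted p = 2.35e-06). TFRC and TFR2 thus moved in opposite directions with GATA2 overexpression. The TFRC to TFR2 count ratio within a library, which needs no scaling between libraries, was 12.8 ± 1.52 in GATA2 overexpression CD90+, 26.8 ± 3.53 in control CD90+ and 33.6 ± 2.69 in control CD38+ libraries (SD, n = 3 each). For 3 libraries against 3 the exact two-sided permutation p was 0.1, the smallest this design allows, in each of the 3 pairs of groups. The control CD90+ and control CD38+ ratios lay next to each other, with a highest value of 30.7 in control CD90+ and a lowest value of 30.9 in control CD38+ libraries.

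STEAP3 encodes the endosomal reductase that turns ferric into ferrous iron in erythroid cells. It lies on chromosome 2 (119223831 to 119265652, plus strand, GRCh38). Its level was low throughout, at 3.75, 4.05 and 4.54 CPM in GATA2 overexpression CD90+, 3.89, 3.74 and 3.66 CPM in control CD90+ and 1.44, 1.15 and 1.40 CPM in control CD38+ libraries. The CD90+ groups overlapped each other, and both lay above control CD38+. The log2 fold change for GATA2 overexpression over control CD90+ was 0.13, with an approximate 95% interval of -0.17 to 0.42 (adjusted p = 0.45, edgeR). STEAP3 was 2.83-fold higher in control CD90+ (adjusted p = 2.93e-07) and 3.09-fold higher in GATA2 overexpression CD90+ (adjusted p = 1.00e-07) than in control CD38+ libraries. The gene shares 500 exon bases with STEAP3-AS1 on the opposite strand, and whether the counting used strand is not given in the sources used here.

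SLC11A2 encodes the proton-coupled transporter that moves ferrous iron out of the endosome. It lies on chromosome 12 (50979401 to 51028566, minus strand, GRCh38). It had 68.1, 62.2 and 70.1 CPM in GATA2 overexpression CD90+, 63.1, 63.7 and 62.4 CPM in control CD90+ and 106, 101 and 102 CPM in control CD38+ libraries. The CD90+ groups overlapped and both lay below control CD38+, by 1.55-fold in GATA2 overexpression CD90+ (adjusted p = 2.28e-10, edgeR) and 1.64-fold in control CD90+ (adjusted p = 4.45e-11). The log2 fold change between the CD90+ groups was 0.08 (approximate 95% interval 0.00 to 0.16, adjusted p = 0.0803), which was not called. It became 0.14 with an adjusted p of 0.00319 without GATA2 overexpression replicate 2, and -0.17 with an adjusted p of 0.00176 on library size only, so that its direction depends on the scaling. SLC11A2 was the only 1 of the 6 genes with a RefSeq promoter window (250 bases before to 50 after the start) that held a GATA motif (GATAA or GATAG after an A or a T, on either strand), and 22.1% of 12258 tested genes hold one.

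SLC25A37 encodes mitoferrin, which carries iron into mitochondria and is known from zebrafish and mouse to be required for red cell hemoglobin. It lies on chromosome 8 (23528805 to 23575463, plus strand, GRCh38). Its levels were 53.1, 54.5 and 54.2 CPM in GATA2 overexpression CD90+, 68.2, 73.6 and 70.4 CPM in control CD90+ and 61.9, 64.8 and 60.6 CPM in control CD38+ libraries. The groups did not overlap, and the differences were small. SLC25A37 fell by 0.39 on the log2 scale with GATA2 overexpression in CD90+ cells (adjusted p = 1.22e-07, edgeR). It was higher by 0.18 in control CD90+ than in control CD38+ libraries (adjusted p = 5.42e-04). The log2 fold change of -0.21 for GATA2 overexpression CD90+ over control CD38+ (adjusted p = 1.48e-04) became -0.05 on library size only and -0.06 on upper-quartile factors, neither of them called.

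FTL and FTH1 encode the light and heavy chains of ferritin, the cage that stores iron in the cytosol. FTL lies on chromosome 19 (48965301 to 48966878, plus strand) and FTH1 on chromosome 11 (61959718 to 61967660, minus strand, GRCh38). The heavy chain oxidises ferrous iron and the light chain supports mineral formation. FTL had 3370, 3479 and 3535 CPM in GATA2 overexpression CD90+, 8718, 8461 and 8328 CPM in control CD90+ and 14813, 14398 and 14790 CPM in control CD38+ libraries. Each library of one group lay outside the range of the other groups, with GATA2 overexpression lowest. FTL was 2.46-fold lower in GATA2 overexpression than in control CD90+ (log2 -1.30 ± 0.03 SE, adjusted p = 9.04e-17, edgeR), 1.73-fold lower in control CD90+ than in control CD38+ (adjusted p = 3.73e-14), and 4.24-fold lower in GATA2 overexpression CD90+ than in control CD38+ libraries (adjusted p = 8.35e-20).

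FTH1 showed the same order of groups with different steps. It had 698, 747 and 735 CPM in GATA2 overexpression CD90+, 973, 1015 and 1020 CPM in control CD90+ and 2359.5, 2337 and 2447 CPM in control CD38+ libraries. Its fall with GATA2 overexpression in CD90+ cells was 1.38-fold (log2 -0.46 ± 0.03 SE, adjusted p = 2.04e-10, edgeR), and it was 2.37-fold lower in control CD90+ than in control CD38+ libraries (log2 -1.25 ± 0.03, adjusted p = 2.47e-16). The larger step of FTL thus lay between the CD90+ groups and that of FTH1 between the controls. FTH1 shares 1267 exon bases with BEST1 on the opposite strand. FTH1 and FTL both have processed pseudogenes with near-identical sequence, so that reads may be split or dropped, and reads on pseudogene rows were not analysed here.

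The chain ratio carried this difference in a form free of scaling factors. The FTH1 to FTL count ratio was 0.207, 0.215 and 0.208 in GATA2 overexpression CD90+, 0.112, 0.120 and 0.123 in control CD90+ and 0.159, 0.162 and 0.165 in control CD38+ libraries. The groups did not overlap, and the control CD90+ ratios were lowest. The ratio was 1.78-fold higher in GATA2 overexpression than in control CD90+ libraries and 1.38-fold lower in control CD90+ than in control CD38+ libraries. Corrected for exon length, the FTH1 to FTL ratio was 0.0908 ± 0.00182 in GATA2 overexpression CD90+, 0.0511 ± 0.00247 in control CD90+ and 0.0702 ± 0.00134 in control CD38+ libraries (SD, n = 3 each). Counted reads per exon base were thus higher for the light chain in every group. Whether reads lost to pseudogenes or to the BEST1 overlap differed between the chains was not tested.

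FTL and FTH1 together took 0.410 ± 0.0111% of all counts in GATA2 overexpression CD90+, 1.11 ± 0.0161% in control CD90+ and 1.49 ± 0.0241% in control CD38+ libraries (SD, n = 3 each). Ranked by counts over all genes, FTL stood at position 14 in GATA2 overexpression CD90+ libraries and at position 3 in each control group. FTH1 stood at 170 in GATA2 overexpression CD90+, 73 in control CD90+ and 33 in control CD38+ libraries. The exact two-sided permutation p was 0.1 for each pair of groups, for the chain ratio and for the ferritin share (3 libraries each), and remained 0.1 after adjustment over the 12 ratio tests.

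SLC40A1 encodes ferroportin, the known exporter of iron from cells and the target of the hormone hepcidin. It lies on chromosome 2 (189560579 to 189583758, minus strand, GRCh38). It had 424, 410 and 429 CPM in GATA2 overexpression CD90+, 217, 215 and 217 CPM in control CD90+ and 183, 181 and 184 CPM in control CD38+ libraries. GATA2 overexpression libraries stood clear of both controls, and the controls did not overlap each other. SLC40A1 rose 1.95-fold with GATA2 overexpression in CD90+ cells (log2 0.96 ± 0.02 SE, adjusted p = 6.39e-16, edgeR) and was 2.31-fold higher in GATA2 overexpression CD90+ than in control CD38+ libraries (adjusted p = 1.46e-17). Between the controls it was 1.18-fold higher in CD90+ (adjusted p = 6.88e-08).

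TFRC and SLC40A1 RNA moved apart with GATA2 overexpression in CD90+ cells, while TFR2 rose as SLC40A1 did and STEAP3 and SLC11A2 were not called. The TFRC to SLC40A1 count ratio was 0.410, 0.376 and 0.381 in GATA2 overexpression CD90+, 1.0003, 1.01 and 1.01 in control CD90+ and 0.779, 0.802 and 0.753 in control CD38+ libraries. The GATA2 overexpression libraries lay below all others and the control CD90+ libraries above all others. The ratio was 2.59-fold lower in GATA2 overexpression than in control CD90+ libraries (exact two-sided permutation p = 0.1, 3 libraries each, the smallest possible).

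**Figure D3:**
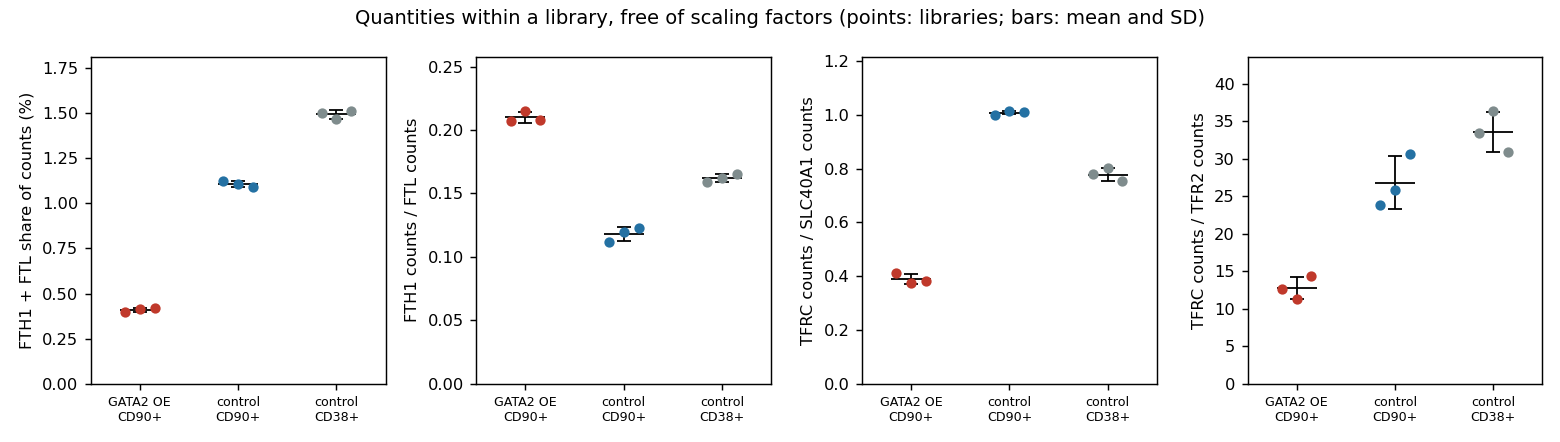
Quantities formed within a library from counts, namely the ferritin share of counts (%) and the FTH1 to FTL, TFRC to SLC40A1 and TFRC to TFR2 count ratios, with points for libraries and bars for the mean and SD of 3 libraries (axes start at 0). The ferritin share is lowest in GATA2 overexpression CD90+ libraries at a mean of 0.410%, while the FTH1 to FTL ratio is highest there at a mean of 0.210.

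HMOX1 encodes heme oxygenase 1, which opens the heme ring and releases iron, carbon monoxide and biliverdin. The gene lies on chromosome 22 (35380361 to 35394214, plus strand, GRCh38). It is known for high expression in macrophages that clear red cells. It had 31.6, 31.1 and 27.3 CPM in GATA2 overexpression CD90+, 292, 288 and 288 CPM in control CD90+ and 386, 399 and 402 CPM in control CD38+ libraries. The GATA2 overexpression libraries were far below every control library. HMOX1 fell 9.63-fold with GATA2 overexpression in CD90+ cells (log2 -3.27 ± 0.04 SE, adjusted p = 1.30e-19, edgeR), and 3.54% of all tested genes had a lower log2 fold change. It was 13.2-fold lower in GATA2 overexpression CD90+ than in control CD38+ libraries (adjusted p = 5.58e-21). Between the controls it was 1.37-fold lower in CD90+ (adjusted p = 1.23e-09), and this difference was lost on library size only (log2 -0.04, adjusted p = 0.252).

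Macrophage markers moved with HMOX1 and FTL between the CD90+ groups. Most markers of the mesenchymal, hepatic and yolk sac endoderm and erythroid lists described below were also lower with GATA2 overexpression there. Of the 18 listed macrophage markers, 17 were tested, and all 17 were lower in GATA2 overexpression than in control CD90+ libraries. Their summed level was 247 to 273 CPM in GATA2 overexpression CD90+, 1990 to 2031 CPM in control CD90+ and 1437 to 1506 CPM in control CD38+ libraries, and none was at 0 in any group. Between the controls the markers were mixed, with 10 of the 17 higher and 7 lower in CD90+ than in CD38+ libraries. VSIG4 was 11.7-fold lower in control CD90+ (30.4 ± 0.576 against 355 ± 5.81 CPM in control CD38+; adjusted p = 3.18e-21, edgeR), and C1QA was 15.8-fold higher (150.4 ± 2.08 against 9.50 ± 0.289 CPM; SD, n = 3 each). The order of the control sums rested on CSF1R, the most abundant marker: without it, a choice made after seeing the values, the sums were 31.0 to 36.8 CPM in GATA2 overexpression CD90+, 936 to 962 CPM in control CD90+ and 1035 to 1078 CPM in control CD38+ libraries. The part of macrophage RNA in the levels of these genes was not tested.

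BLVRB encodes biliverdin reductase B, a flavin reductase abundant in red cells and known from fetal biliverdin reduction. It lies on chromosome 19 (40447765 to 40465840, minus strand, GRCh38). Its levels were 149, 158 and 155 CPM in GATA2 overexpression CD90+, 199.6, 198 and 195 CPM in control CD90+ and 152, 153 and 159 CPM in control CD38+ libraries. Control CD90+ libraries lay above all others, and the other groups overlapped. BLVRB fell by 0.36 on the log2 scale with GATA2 overexpression in CD90+ cells (adjusted p = 4.35e-09, edgeR) and was 0.35 higher in control CD90+ than in control CD38+ libraries (adjusted p = 4.48e-09). The log2 fold change of GATA2 overexpression CD90+ over control CD38+ was within -0.06 to 0.05 (approximate 95% interval, adjusted p = 0.90), and it became 0.16 (adjusted p = 9.57e-05) on library size only. HMOX1 and BLVRB had approximate 95% intervals of the log2 fold change that did not overlap in any of the 3 comparisons.

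Erythroid and other marker lists also differed between groups, beside the uptake genes that red cell precursors use. Summed over 19 tested erythroid markers, levels were 779 to 871 CPM in GATA2 overexpression CD90+, 1000 to 1030 CPM in control CD90+ and 342 to 353 CPM in control CD38+ libraries. That order of the CD90+ groups rested on HBE1, an embryonic globin and the most abundant marker: without it, also chosen after seeing the values, the sums were 509 to 539 CPM in GATA2 overexpression CD90+, 371 to 382 CPM in control CD90+ and 163 to 166 CPM in control CD38+ libraries. Between the CD90+ groups 4 of the 19 markers were higher and 11 lower with GATA2 overexpression. RHAG, at 107 ± 5.14 against 44.8 ± 0.976 CPM in control CD90+, and GYPC, at 206 ± 2.90 against 92.0 ± 3.19 CPM, were higher, and HBE1, at 291 ± 35.0 against 637 ± 10.1 CPM, was lower (SD, n = 3 each). TRIM10 was at 0 in GATA2 overexpression CD90+, and AHSP and TRIM10 were among those at 0 in control CD38+ libraries. Mast cell and basophil markers summed to 841 to 879, 259 to 268 and 5961 to 6186 CPM in GATA2 overexpression CD90+, control CD90+ and control CD38+ libraries, with CMA1 at 0 in the GATA2 overexpression and the control CD38+ group. The list holds GATA2 itself, and without it the sums were 458 to 516, 172 to 178 and 5380 to 5635 CPM. Without CLC instead, the most abundant marker, they were 516 to 535, 183 to 189 and 2365 to 2431 CPM. Of the 11 tested markers, 9 were higher and 1 lower in GATA2 overexpression CD90+ than in control CD90+ libraries. Against control CD38+ libraries, 3 were higher and 8 lower in GATA2 overexpression CD90+. Megakaryocyte markers, none of them at 0, summed to 4667 to 4791, 2771 to 2809 and 810 to 822 CPM in the same order of groups. Of these 12 markers, 7 were higher and 3 lower in GATA2 overexpression than in control CD90+ libraries. SLC40A1, TFR2 and the erythroid sum without HBE1 ranked the groups in the same way, while the full erythroid sum was highest in control CD90+ libraries. Most erythroid markers ran against that ranking between the CD90+ groups, with 11 of the 19 lower and 4 higher with GATA2 overexpression. Mesenchymal markers summed to 385 to 404, 1270 to 1284 and 48.8 to 52.1 CPM, with POSTN and THY1 at 0 in control CD38+. THY1 encodes the sorted marker CD90, and at 3.06 CPM in GATA2 overexpression CD90+ and 4.43 CPM in control CD90+ it was a small part of these sums. Hepatic and yolk sac endoderm markers summed to 116 to 130, 319 to 321 and 12.7 to 13.6 CPM, with CER1 at 0 in GATA2 overexpression CD90+ and FGA and CER1 at 0 in control CD38+. Of 16 tested mesenchymal markers, 14 were lower and 1 higher in GATA2 overexpression than in control CD90+ libraries. Of 16 tested hepatic and yolk sac endoderm markers, 13 were lower and 1 higher in that comparison. The part of these cell types in the iron gene levels was not tested.

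Other genes of the pathway were read from lists by function. Of 15 other uptake and ferric reduction genes, 7 were higher and 6 lower in GATA2 overexpression than in control CD90+ libraries, and 4 were higher and 5 lower in control CD90+ than in control CD38+ libraries. On library size only these counts turned, to 5 higher and 7 lower and to 8 higher and 3 lower. SNX3, a sorting protein that returns the transferrin receptor to the surface, was 1.80-fold higher in GATA2 overexpression CD90+ at 632 ± 22.8 CPM against 351 ± 2.44 CPM in control CD90+ libraries (SD, n = 3 each; adjusted p = 6.10e-14, edgeR). MCOLN1, an endolysosomal cation channel that passes iron, was 3.63-fold lower in control CD90+ at 16.0 ± 1.22 CPM against 57.9 ± 1.90 CPM in control CD38+ libraries (adjusted p = 3.19e-14).

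Of 9 tested genes among 14 for storage, export and the hepcidin axis, 3 were higher and 5 lower in GATA2 overexpression than in control CD90+ libraries, and 6 were higher and 3 lower in control CD90+ than in control CD38+ libraries. NCOA4, the receptor that delivers ferritin to autophagy, was 1.55-fold lower in GATA2 overexpression CD90+ (391 ± 7.29 CPM) and 1.49-fold lower in control CD90+ (407 ± 3.77 CPM) than in control CD38+ libraries (605 ± 4.31 CPM; SD, n = 3 each; edgeR adjusted p = 4.58e-14 and 2.41e-13). BMP6, a ligand known to induce hepcidin in liver, was 2.12-fold lower in GATA2 overexpression than in control CD90+ libraries, at 20.1 ± 2.24 against 42.5 ± 1.57 CPM (adjusted p = 3.34e-10).

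Of the 7 tested iron regulatory protein genes and their regulators, 2 were higher and 2 lower in GATA2 overexpression than in control CD90+ libraries, and 2 higher and 5 lower on library size only. IREB2, which binds IREs, was 1.54-fold lower in GATA2 overexpression CD90+ at 35.3 ± 2.30 CPM against 54.3 ± 0.675 CPM in control CD90+ libraries (SD, n = 3 each; adjusted p = 4.81e-09, edgeR). FBXL5, the iron-sensing ligase subunit that marks IREB2 for decay, was 1.66-fold lower in GATA2 overexpression CD90+ than in control CD38+ libraries, at 70.9 ± 3.05 against 118 ± 0.630 CPM (adjusted p = 6.37e-12). In control CD90+ over control CD38+ libraries, 3 of the 7 were higher and 3 lower, and 5 were higher and 1 lower on library size only.

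Of 14 heme handling genes, 4 were higher and 8 lower in GATA2 overexpression than in control CD90+ libraries, and 3 were higher and 7 lower in control CD90+ than in control CD38+ libraries. The split between the controls became 5 higher and 6 lower on library size only and on upper-quartile factors. The lower calls between the CD90+ groups included CD163, the hemoglobin scavenger receptor of macrophages, which was 35.4-fold lower at 1.44 ± 0.238 CPM in GATA2 overexpression against 51.0 ± 1.57 CPM in control CD90+ libraries (adjusted p = 3.43e-18, edgeR). CD163 also stands in the macrophage marker list. LRP1, a receptor for heme bound to hemopexin, was 17.1-fold lower at 4.05 ± 0.510 against 69.4 ± 1.32 CPM (SD, n = 3 each). SLC48A1, which moves heme out of the endolysosome, went the other way and was 2.31-fold higher in GATA2 overexpression at 65.2 ± 3.82 against 28.2 ± 0.557 CPM in control CD90+ libraries (adjusted p = 1.37e-13). Between the controls SLC48A1 was 3.80-fold lower in CD90+, against 107 ± 2.97 CPM in control CD38+ libraries. ABCG2 was 48.4-fold higher in control CD90+ (47.2 ± 1.37 CPM) than in control CD38+ libraries (0.966 ± 0.382 CPM). ABCG2 averaged 0.457 ± 0.169 CPM in GATA2 overexpression CD90+ libraries.

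Of 20 tested iron-sulfur cluster assembly genes, 17 were higher and 2 lower in GATA2 overexpression than in control CD90+ libraries, with a median log2 fold change of 0.59 beside -0.04 over all tested genes. On library size only the counts were 15 higher and 3 lower. GLRX5, a glutaredoxin that passes clusters on and is known to matter for heme synthesis, was 2.12-fold higher at 259 ± 13.9 against 122 ± 5.03 CPM (SD, n = 3 each; adjusted p = 1.53e-13, edgeR). HSPA9, a mitochondrial chaperone of the assembly step, fell 1.36-fold at 372 ± 9.70 against 504 ± 2.74 CPM (adjusted p = 2.54e-11). In control CD90+ over control CD38+ libraries 3 of the 20 were higher and 16 lower, a split that became 9 higher and 10 lower on library size only.

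Of 9 heme synthesis enzymes, 7 were higher and 1 lower in GATA2 overexpression than in control CD90+ libraries, and 5 higher and 3 lower on library size only. UROD, a decarboxylase of the porphyrin pathway, was 1.98-fold higher at 362 ± 9.73 against 183 ± 1.28 CPM (SD, n = 3 each; adjusted p = 1.27e-15, edgeR). The lower gene was ALAS2, the erythroid form of the first enzyme, known to carry an IRE of its own, at 20.6 ± 1.19 CPM in GATA2 overexpression against 43.4 ± 1.31 CPM in control CD90+ libraries (adjusted p = 2.39e-10). Between the controls ALAS2 was 6.23-fold higher in CD90+ (43.4 ± 1.31 against 6.97 ± 0.818 CPM) and ALAS1, the general form, was 4.01-fold lower in CD90+ (118 ± 1.92 against 475 ± 13.4 CPM). Between the controls 3 enzymes were higher and 3 lower, and 7 were higher and 1 lower on library size only.

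A list of 19 other genes linked to NRF2 and BACH1 holds targets and also BACH1 itself, NFE2L2, which encodes NRF2, and their regulator KEAP1. It leaves out the iron genes described above, which did not move together. In GATA2 overexpression over control CD90+ libraries, HMOX1 (log2 -3.27), FTL (-1.30) and FTH1 (-0.46) fell and SLC40A1 (0.96) rose. Of the 19, 12 were lower and 6 higher in GATA2 overexpression than in control CD90+ libraries, and 15 were lower and 4 higher in control CD90+ than in control CD38+ libraries. The median log2 fold changes were -0.54 and -0.94, beside -0.04 and 0.03 over all tested genes. SLC7A11, the cystine importer, was 7.28-fold lower in GATA2 overexpression at 2.65 ± 0.419 against 19.2 ± 0.841 CPM in control CD90+ libraries (SD, n = 3 each; adjusted p = 3.85e-15, edgeR). PGD, an enzyme of the pentose phosphate pathway, was 1.62-fold higher in GATA2 overexpression at 356 ± 1.84 against 220 ± 2.84 CPM in control CD90+ libraries (adjusted p = 2.38e-14). In GATA2 overexpression CD90+ over control CD38+ libraries 14 of the 19 were lower and 3 higher, with a median of -1.62 beside 0.07 over all tested genes. In that comparison the higher and lower calls were 6 and 5 of 15 for other uptake genes, 3 and 3 of 9 for storage and export, and 4 and 2 of 7 for the iron regulatory group. They were 4 and 8 of 14 for heme handling, 10 and 9 of 20 for iron-sulfur assembly and 7 and 2 of 9 for heme synthesis.

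**Figure D4:**
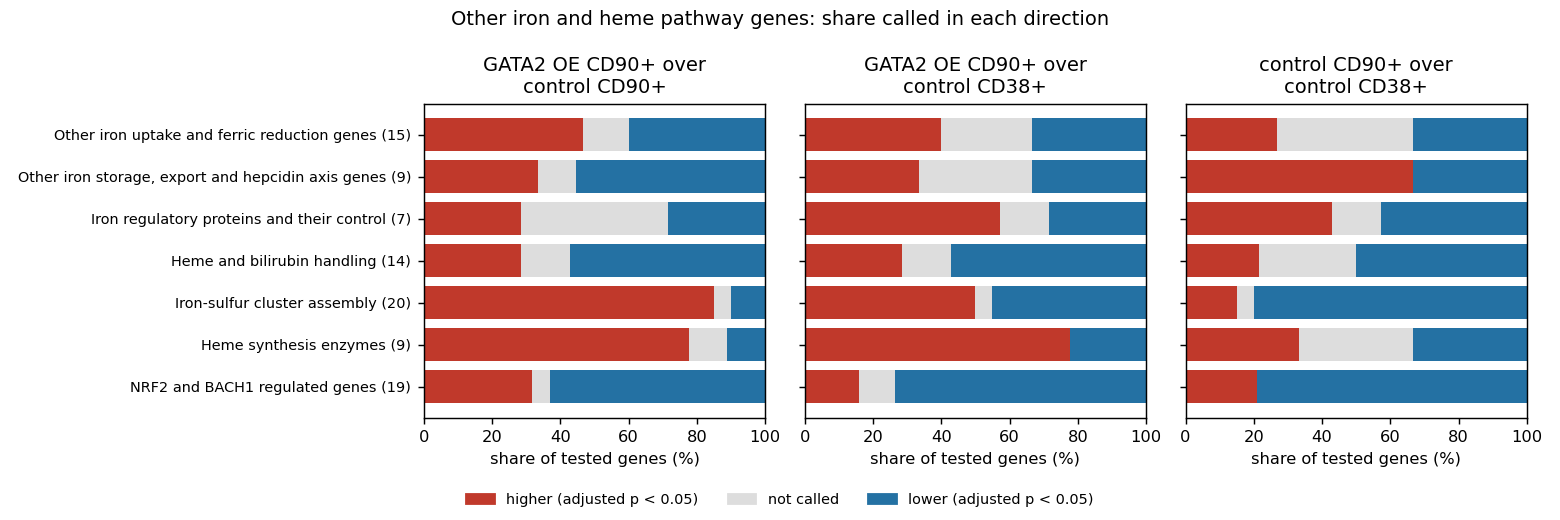
Share of the tested genes of each list (number in brackets) that were higher, lower or not called at an adjusted p of 0.05, in the 3 comparisons, with the horizontal axis in percent of tested genes. Iron-sulfur cluster assembly has 17 of 20 genes higher in GATA2 overexpression over control CD90+ and 16 of 20 lower in control CD90+ over control CD38+, a split that moves to 9 higher and 10 lower on library size only.

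Likeness of pattern was measured as the root mean square (RMS) difference of centred log2 CPM over the 9 libraries, with 10611 candidate genes of at least 5 CPM on average. Nearest to HMOX1 were SEMA4A, with an RMS difference of 0.076 on the log2 scale, and SLC7A8, at 0.13. SEMA4A averaged 10.1 CPM in GATA2 overexpression CD90+, 99.7 CPM in control CD90+ and 149 CPM in control CD38+ libraries. Nearest to FTL were DOCK2 (0.067) and PEA15 (0.069), and nearest to FTH1 were PDE3B (0.031) and YKT6 (0.047), while FTL and FTH1 were 0.34 apart. The genes nearest to SLC40A1 were PRDX6 (0.031) and RPL13A (0.033), the second of them a ribosomal protein gene with near-identical copies. TFRC was nearest to KLF3 (0.026) and ANKRD26 (0.041), and TFR2 to TRMT61B (0.079) and ZNF286A (0.096). STEAP3 lay nearest to PFAS and RASGEF1A, SLC11A2 to TOP2A and ADIPOR1, SLC25A37 to FYTTD1 and PAFAH1B1, and BLVRB to CELF1 and MLXIP, at 0.035 to 0.099. Among the 10 genes the closest pair was SLC25A37 and BLVRB, 0.10 apart, and HMOX1 was the farthest from its nearest member of the set, FTL, at 0.87.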

How the data were processed

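Strand-specific RNA libraries of 3 groups of 3 were analysed from the authors' deposited counts, reads per gene symbol as whole numbers, not scaled for depth. Per the submitters' processing notes, HISAT2, featureCounts and hg38 were used. Their versions, the annotation and whether strand was used are not given. The members and gene lists were chosen with earlier results of these data known.

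From the counts, edgeR 4.0.16 (R 4.3.3) fitted group means over all 9 libraries with TMM factors and its quasi-likelihood test, keeping 16232 of 21229 genes by filterByExpr (minimum count 10, minimum total 15). Calls were made at an adjusted p under 0.05, with Benjamini-Hochberg adjustment over all tested genes. TPM used exon-union lengths of GENCODE release 29. Ratios within a library were compared by exact two-sided permutation tests (scipy 1.17.1). Of each list, the genes named are the 2 called genes of lowest adjusted p in a comparison and the first in the other direction, of which examples are given. Of 194 list symbols, 188 were in the table. Alternatives were DESeq2 1.42.0, limma 3.58.1 voom, other factors and filters, a replicate block, the compared groups alone, and leaving out each library. Promoter windows are from RefSeq. Reads have no molecular identifiers, so counts are not independent molecules.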

Additional observations from a re-analysis of the deposited data

How the results depend on the processing

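The counts of genes and of iron genes called stayed within 1.5 times under every alternative run, a wide band for 10 genes. The direction of each of the 12 ratio results held as well. As the groups did not overlap in these ratios, leaving out 1 library could not turn a direction. A replicate block leaves the mean difference of a ratio as it is, so it could not turn it either. Genes called without each library in turn were 12142 to 12820 for GATA2 overexpression over control CD90+, 12713 to 13398 for control CD90+ over control CD38+ and 13279 to 13532 for GATA2 overexpression CD90+ over control CD38+, and iron genes called were 8 to 9, 10 and 9. The same replicate numbers did not pair libraries (correlations of deviations -0.029 to 0.026), and with a replicate block 12384, 12889 and 13347 genes and 8, 10 and 9 iron genes were called. Of 540 recomputed iron gene fold changes, 525 kept sign and side of the threshold. Those that turned were SLC11A2 in GATA2 overexpression over control CD90+ (log2 -0.17 on library size only, -0.031 on upper-quartile factors, -0.014 with at least 1 CPM in 3 libraries), STEAP3 there (-0.12 on library size only) and BLVRB in GATA2 overexpression CD90+ over control CD38+ (0.16 on library size only, 0.14 on upper-quartile factors, 0.010 with no filter, -0.016 to 0.027 without each library in turn). On library size only the median over all tested genes was -0.29, 0.44 and 0.23, in the same order of comparisons, and the share of calls that were higher was 35.5%, 71.2% and 58.0%, against 49.0%, 51.2% and 52.1% with TMM. Fold changes are thus relative to the scaling. Of 1404 recomputed list counts, 61 moved by over 1.5 times, 29 of them on library size only or upper-quartile factors, and the cause of the others was not tested. Adding ferritin pseudogene reads was not run. Low counts limit STEAP3 and TFR2 most.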
